A study of Rattus norvegicus with 16 samples.

Results

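The miR-125, miR-99 and miR-100 families were followed through 5 microRNAs (miRNAs) of the rat hippocampus, rno-miR-125a-5p, rno-miR-125b-5p, rno-miR-99a, rno-miR-99b and rno-miR-100. They were chosen by name among the 350 miRNAs on the array, as the partners of let-7 in shared host clusters, and all 5 were measured on all 16 arrays. The RNA came from whole hippocampus of male Sprague-Dawley rats. Injured rats were killed 24 h after severe lateral fluid percussion injury, in which a pulse of fluid pressed on the exposed brain produces a traumatic brain injury (TBI). The injured groups were TBI+PMI (3 arrays), TBI+JM6 (3 arrays) and TBI+E33 (2 arrays), each given a compound known here only by its code name and with no dose in the labels, and TBI without a drug (3 arrays). The uninjured groups were sham injury (2 arrays) and naive rats with no treatment (3 arrays). The series describes its samples as biological, and it describes more sham and TBI+E33 samples than the 2 and 2 analysed here. No drug was given to uninjured rats, so the 3 drug groups share the injury.

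The arrays lay on 2 slides, and each test of 1 group against another was made within a slide. Slide 1 held TBI+PMI 1 and 2, the 3 TBI arrays and the 3 naive arrays, and slide 2 held TBI+PMI 3, the TBI+JM6 and TBI+E33 arrays and the sham arrays. TBI therefore has no array on the slide of sham, and TBI+JM6 and TBI+E33 have none on the slide of naive or TBI. Levels are given as log2 of the mean spot signal over the 75th percentile of the array, so 0 stands for that percentile, and they are compared between arrays and not between miRNAs. Between 293 and 463 of 938 probes were well above background on an array, and no spot was saturated. The summed level of 6 neuronal markers, such as miR-124 and miR-128, lay between 4.68 and 5.29 on every array. Of the liver and muscle miRNAs, miR-122, miR-133a and miR-206 were well above background on no array, miR-1 on 1 and miR-133b on 15, at -4.84 to -3.25. 2 injured arrays stood apart from their groups. miR-223, a miRNA of granulocytes and other myeloid cells, was at -5.07 on TBI 1, against -2.17 and -2.16 on TBI 2 and 3, and at -4.06 on TBI+PMI 1, against -1.84 and -2.01 on TBI+PMI 2 and 3, while naive arrays held -5.96, -4.19 and -5.75. Differences in the members that rest on TBI 1 or TBI+PMI 1 are therefore also given without them. miR-204, a miRNA of the choroid plexus, was high on TBI+PMI 1 at 2.56, sham 1 at 2.17 and naive 2 at 1.03, and between -0.96 and -0.31 on the other arrays.

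miR-125 is the vertebrate counterpart of lin-4 of Caenorhabditis elegans, the first miRNA described, and let-7 was found in the same developmental timing pathway of the worm. miR-99 and miR-100 form one family with a shared seed, the bases that pair with target mRNAs. In Drosophila, miR-100, let-7 and miR-125 are cut from one transcript, and vertebrates keep several copies of that trio. In mammalian cells miR-125 and let-7 both repress Lin28, miR-99 and miR-100 repress Mtor, and miR-125b acts on dendritic spines of mouse hippocampal neurons.

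The mature sequences show why the members fall into 2 families and how far the probes can tell them apart. RefSeq mature sequences (GRCr8) were matched to 4 of the 5 members by name, and these are shown with their let-7 partners, 5′ to 3′, with the seed (bases 2 to 8) in capitals. miR-99a is named only.
rno-miR-125a-5p: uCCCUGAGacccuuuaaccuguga
rno-miR-125b-5p: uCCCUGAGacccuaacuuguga
rno-miR-99b: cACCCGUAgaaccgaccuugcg
rno-miR-100: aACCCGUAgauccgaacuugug
rno-let-7a: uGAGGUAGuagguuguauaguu
rno-let-7c: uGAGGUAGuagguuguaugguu
rno-let-7e: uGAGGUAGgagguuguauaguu

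miR-125a-5p and miR-125b-5p were identical over their first 13 bases, and their probes differed from the other's mature sequence at 5 to 7 bases. miR-99b and miR-100 differed at 4 positions counted from the 5′ end (C1A, A11U, C16A and C21U, with the base of miR-99b first). The miR-99a probes differed from mature miR-100 at only 1 base, so signal from miR-100 on those probes cannot be told apart. No mature miR-99a was matched, and the miR-100 probes were not checked against it. How much miR-99a adds to the miR-100 values is therefore not known. let-7a differed from let-7c at A19G and from let-7e at U9G, and their probes share the same limit.

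In the array annotation (rn4) the members lay in 3 clusters, each in the order miR-99 or miR-100, let-7, miR-125. On chromosome 1 the probes of miR-99b mapped at chr1:56486982-56486996, those of let-7e 170 bases farther on and those of miR-125a-5p 448 bases after that, at chr1:56487600-56487617. On chromosome 8 miR-100 lay at chr8:44518686-44518703, let-7a 7101 bases from it and miR-125b a further 44387 bases on. On chromosome 11 miR-99a lay at chr11:16397559-16397577, let-7c 723 bases from it and miR-125b a further 45405 bases on. Mature miR-125b-5p comes from the loci on chromosomes 8 and 11 alike, let-7a also maps to chromosome 17 and let-7c to chromosome 7, and the array cannot separate such copies. RefSeq kept the 3 orders in GRCr8, where Spaca6 spans the cluster on chromosome 1, Mir100hgl and Lnc215 that on chromosome 8 and LOC103693508 that on chromosome 11.

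Each member was read by 2 probes of 10 spots, and 1600 of 1600 spots were well above background. The spots of a probe varied by a median of 3.61% (coefficient of variation, at most 13.5%). A miRNA was called where limma, which fits all miRNAs together, gave an adjusted p under 0.05 (Benjamini-Hochberg). In RNA from whole tissue, fewer cells of a type and less RNA per cell cannot be told apart.

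No member passed the test in any of 6 comparisons between groups, and none reached an unadjusted p of 0.05 there either. The 30 differences between group means lay between -0.32 and 0.16 on the log2 scale. Their 95% intervals reached down to 0.626-fold and up to 1.38-fold, so a change beyond that range lay outside every interval. A p that misses the threshold does not show that the groups were alike within it.

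**Figure D1:**
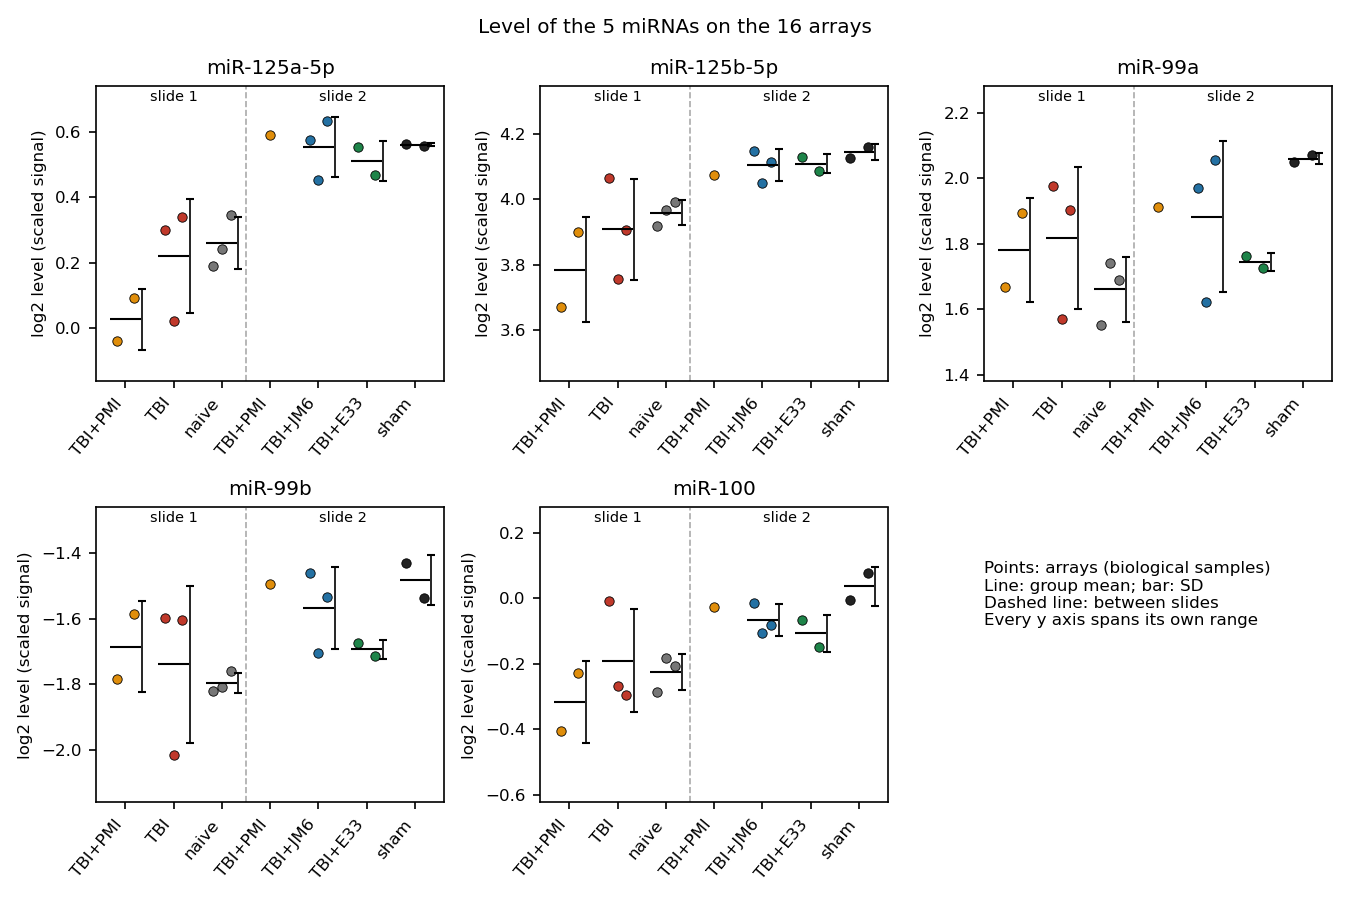
Log2 level of each member (y axis, relative to the 75th percentile of the array) on every array, by group and slide (x axis); each point is 1 array, horizontal lines are group means on a slide and bars their SD. The groups of a slide lie close together, and the arrays of slide 2 sit higher on average than those of slide 1, without overlap for miR-125a-5p. The share of all miRNAs that do so was not counted, and slide and group cannot be told apart.

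TBI against naive set injured rats against rats with no treatment, so it covers the handling of the injured rats as well as the injury. miR-99a stood at 1.98, 1.57 and 1.90 on the TBI arrays, against 1.55, 1.74 and 1.69 on the naive arrays. The groups overlapped, and the difference of 0.16 (SE 0.13) had an interval from -0.15 to 0.46 and an adjusted p of 0.510. miR-100, its family member on chromosome 8, was at -0.01, -0.27 and -0.29 in TBI hippocampus, against -0.29, -0.18 and -0.21 in naive hippocampus. miR-99b was at -1.60, -2.02 and -1.60 in TBI hippocampus, against -1.82, -1.81 and -1.76 in naive hippocampus. For both, the TBI arrays lay on either side of the naive values, with differences of 0.03 and 0.06. The lowest TBI array for miR-99a and miR-99b was TBI 2.

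miR-125b-5p was at 4.06, 3.76 and 3.91 on the TBI arrays, against 3.92, 3.97 and 3.99 on the naive arrays, a difference of -0.05. miR-125a-5p was at 0.30, 0.02 and 0.34 on the TBI arrays, against 0.19, 0.24 and 0.35 on the naive arrays, a difference of -0.04. Both overlapped, and TBI 2 was again the lowest. limma called 0 of 5 members and 0% of the 171 miRNAs tested (38 of those were under an unadjusted p of 0.05), and 0 of 5 members did not overlap, where 28.7% of all miRNAs did not. The median size of a difference was 0.05 for the members and 0.15 over all miRNAs tested. Without TBI 1 the differences were 0.08 for miR-99a, -0.01 for miR-99b, -0.06 for miR-100, -0.13 for miR-125b-5p and -0.08 for miR-125a-5p, so those of miR-99b and miR-100 changed sign. Without TBI 2 that of miR-99a was 0.28.

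TBI+PMI against TBI asked what the compound did after injury, with the 2 TBI+PMI arrays of slide 1. miR-125a-5p had the largest difference of the members, at -0.04 and 0.09 on the TBI+PMI arrays, against 0.30, 0.02 and 0.34 on the TBI arrays. The higher TBI+PMI array lay above TBI 2, and the difference was -0.19 (SE 0.13, adjusted p by limma 0.856, interval -0.48 to 0.10). miR-125b-5p was at 3.67 and 3.90 in TBI+PMI hippocampus and miR-100 at -0.41 and -0.23, with differences from TBI of -0.12 and -0.13. miR-99a was at 1.67 and 1.89 and miR-99b at -1.78 and -1.59 in TBI+PMI hippocampus, with differences of -0.04 and 0.05. limma called 0 of 5 members and 0% of the 176 miRNAs tested. All 5 members overlapped, while 21.6% of all miRNAs did not. Without TBI+PMI 1 the differences were -0.13 for miR-125a-5p, -0.01 for miR-125b-5p, -0.04 for miR-100, 0.08 for miR-99a and 0.15 for miR-99b. Without TBI 1 they were -0.15, -0.05, -0.04, 0.04 and 0.12 in the same order. Leaving out each array in turn gave -0.29 to -0.13 for miR-125a-5p, -0.24 to -0.01 for miR-125b-5p and -0.21 to -0.04 for miR-100. The choroid plexus miR-204 was 1.85 higher in TBI+PMI hippocampus, without passing, and the summed level of both choroid plexus markers was -0.29 to 2.56 there, against -0.94 to -0.57 in TBI hippocampus. Its part in the members' values was not tested.

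Against naive, miR-125a-5p and miR-125b-5p were lower on both TBI+PMI arrays than on every naive array. So 2 of 5 members did not overlap, near the 39.9% of all 178 miRNAs tested that did not. The difference was -0.23 for miR-125a-5p (SE 0.13, interval -0.52 to 0.06, adjusted p by limma 0.250) and -0.17 for miR-125b-5p (adjusted p 0.410). miR-99a, miR-99b and miR-100 differed by 0.12, 0.11 and -0.09, with overlap. By the other probe of each member, miR-125a-5p differed by -0.19, miR-125b-5p by -0.15 and miR-100 also by -0.15. miR-99a and miR-99b differed by 0.07 and 0.04 by that probe. 0 of 5 members were called, beside 8.43% of 178 miRNAs. The 15 miRNAs called were all lower in TBI+PMI hippocampus, but the number and direction of calls changed with the scaling. The number also fell without any 1 naive array. The median difference over all miRNAs tested was -0.12. Without TBI+PMI 1 the differences were -0.17 for miR-125a-5p, -0.06 for miR-125b-5p, 0.23 for miR-99a, 0.21 for miR-99b and -0.0038 for miR-100. Without TBI+PMI 2 they were -0.30, -0.29, 0.0086, 0.013 and -0.18 in the same order, so the 2 TBI+PMI arrays gave different sizes for each member. Without naive 1 that of miR-99a was 0.07. Among 6 neuronal markers, miR-128 fell by 0.60 in this comparison (adjusted p 0.0416 by limma, lost without any 1 of its 5 arrays, at -0.71 to -0.49) and the other 5 did not pass. miR-204 was 1.31 higher, without passing, with a summed choroid plexus level of -0.29 to 2.56 on the TBI+PMI arrays, against -0.87 to 1.03 on the naive arrays. The part of these markers in the members' values was not tested.

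TBI+JM6 against sham was made on slide 2. miR-100 was at -0.01, -0.11 and -0.08 on the TBI+JM6 arrays, against -0.01 and 0.08 on the sham arrays (the nearest TBI+JM6 array lay below the nearest sham array by less than the decimals show), and was the only member without overlap. Its difference was -0.10 (SE 0.07, adjusted p by limma 0.582). miR-99a was at 1.97, 1.62 and 2.06 on the TBI+JM6 arrays, against 2.05 and 2.07 on the sham arrays, with a difference of -0.18 (SE 0.13, adjusted p by limma 0.612). TBI+JM6 2 stood apart from the other arrays of its group here, and without it the difference was -0.05 (-0.26 to -0.05 over the arrays left out). It was also the lowest for miR-99b, at -1.71 against -1.46 and -1.53 on the other TBI+JM6 arrays and -1.43 and -1.54 on the sham arrays. The difference of miR-99b was -0.08, and -0.02 without TBI+JM6 2 (-0.14 to -0.02 over the arrays left out). That of miR-100 was -0.06 without sham 2.

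miR-125a-5p was at 0.57, 0.45 and 0.63 on the TBI+JM6 arrays, against 0.56 and 0.56 on the sham arrays. miR-125b-5p was at 4.15, 4.05 and 4.11 on the TBI+JM6 arrays, against 4.13 and 4.16 on the sham arrays. The differences were -0.01 and -0.04, with 95% intervals that stayed between 0.868-fold and 1.14-fold. 0 of 5 members were called, beside 5.33% of 225 miRNAs, and 1 of 5 did not overlap, beside 31.1% of all. On the same arrays the myeloid markers miR-223 and miR-142-3p rose, by 3.64 and 1.39 on the log2 scale, and miR-142-5p did not pass. The call of miR-223 held without any 1 array, and that of miR-142-3p was lost without sham 1, sham 2 or TBI+JM6 2 (1.25 to 1.58 over the arrays left out). The summed level of these 3 markers was -1.07 to -0.30 on the TBI+JM6 arrays, against -2.93 to -2.62 on the sham arrays. The oligodendrocyte markers miR-219-5p and miR-338 differed by a median of -0.36, without passing, with a summed level of 2.24 to 2.93 on the TBI+JM6 arrays, against 2.87 to 2.90 on the sham arrays. miR-204 was 1.59 lower, without passing, with a summed choroid plexus level of -0.86 to -0.53 on the TBI+JM6 arrays, against -0.32 to 2.18 on the sham arrays. The part of these 3 marker lists in the members' values was not tested.

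TBI+E33 against sham gave the largest differences of the 6 comparisons for miR-99a and miR-99b, by either probe, although neither passed. miR-99a was at 1.76 and 1.72 on the TBI+E33 arrays, against 2.05 and 2.07 on the sham arrays. The gap between the groups was wider than the spread within either, and the difference was -0.32 (SE 0.15, interval -0.68 to 0.04, adjusted p by limma 0.311). The methods' t-test with its 1.2-fold minimum called it before Benjamini-Hochberg adjustment, along with 13.7% of all miRNAs tested, and not after it. With only the arrays of both groups in the fit, limma's adjusted p was 0.0650. miR-99b was at -1.67 and -1.71 on the TBI+E33 arrays, against -1.43 and -1.54 on the sham arrays, a difference of -0.21 (SE 0.10, adjusted p 0.312). miR-100 was at -0.07 and -0.15 in TBI+E33 hippocampus, against -0.01 and 0.08 in sham hippocampus, a difference of -0.14 (SE 0.07, adjusted p 0.359).

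The miR-125 members differed less. miR-125a-5p was at 0.55 and 0.47 on the TBI+E33 arrays, against 0.56 and 0.56 on the sham arrays. miR-125b-5p was at 4.13 and 4.09 on the TBI+E33 arrays, against 4.13 and 4.16 on the sham arrays. The differences were -0.05 and -0.04. 0 of 5 members were called, beside 3.98% of 226 miRNAs. 4 of 5 members did not overlap, all lower, but with 2 arrays a side 61.1% of all miRNAs did not overlap either. miR-223 and miR-142-3p rose here too, by 3.50 and 1.27, with a summed myeloid level of -0.98 to -0.51 on the TBI+E33 arrays. Without TBI+E33 2 the call of miR-223 was lost, and without any 1 of the 4 arrays that of miR-142-3p (differences of 3.17 to 3.83 and 1.13 to 1.42). The oligodendrocyte markers differed by a median of -0.11 and miR-204 by -1.63, without passing, with a summed choroid plexus level of -0.72 to -0.67 on the TBI+E33 arrays and the sham values given above. The part of these markers in the members' values was not tested.

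JM6 and E33 were compared directly on slide 2, over the 5 members. miR-99a was 0.14 higher with JM6 than with E33 (SE 0.13, interval -0.19 to 0.47), miR-99b 0.13 higher (interval -0.10 to 0.35) and miR-100 0.04 higher. Over the arrays left out these were 0.05 to 0.27 (0.27 without TBI+JM6 2, 0.05 without TBI+JM6 3), 0.07 to 0.20 (0.20 without TBI+JM6 2, 0.07 without TBI+JM6 1) and 0.00054 to 0.08 (0.00054 without TBI+E33 2, 0.08 without TBI+E33 1). miR-125a-5p differed by 0.04 and miR-125b-5p by -0.00. All 5 members overlapped between these drugs, none was called, and neither was any of the 230 miRNAs tested (0%), while 12.2% of them did not overlap. The lowest adjusted p of a member by limma was 0.943. Doses were not given, so nothing can be said of matched doses.

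**Figure D2:**
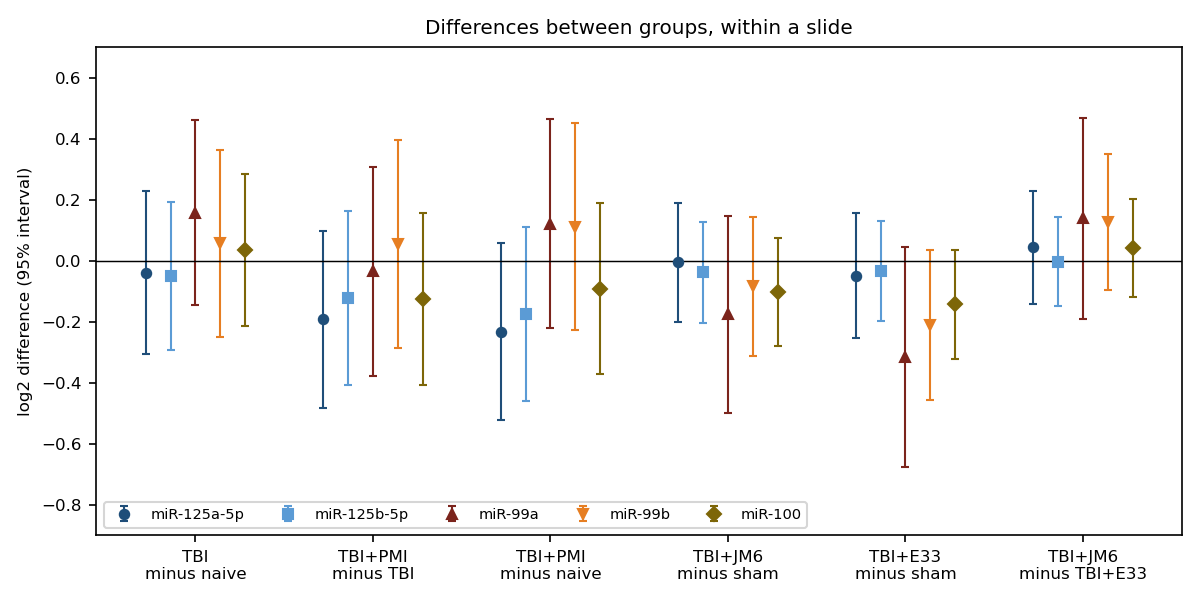
Log2 difference between group means (y axis) of the 5 members in each of the 6 comparisons (x axis); points are differences and lines their 95% intervals from limma. Every line crosses 0, and the lowest point is miR-99a in TBI+E33 minus sham, at -0.32.

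TBI minus naive and TBI+E33 minus sham were also set against each other in 1 model over the 16 arrays. For miR-99a the first exceeded the second by 0.47 (SE 0.21, interval 0.02 to 0.92), with an unadjusted p of 0.042 and an adjusted p of 0.306 by limma, beside 0.442% of 226 miRNAs called. Against TBI+JM6 minus sham the excess was 0.33 (adjusted p 0.464), beside 0% called. Without TBI 1 these values were 0.39 and 0.25, and without TBI+JM6 2 the second was 0.20. Over the arrays left out they ranged over 0.39 to 0.60 and 0.20 to 0.46. In the first contrast, with TBI+E33, the other members gave 0.27 (miR-99b), 0.18 (miR-100), 0.01 (miR-125a-5p) and -0.02 (miR-125b-5p). The uninjured groups of these differences are not the same, naive on slide 1 and sham on slide 2, so drug, uninjured group and slide cannot be told apart.

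Every member was higher on slide 2 than on slide 1 on average, and slide and group cannot be told apart there. The mean of slide 2 exceeded that of slide 1 by 0.36 for miR-125a-5p, 0.21 for miR-125b-5p, 0.15 for miR-99a, 0.18 for miR-99b and 0.19 for miR-100. For miR-125a-5p the slides did not overlap, with 0.45 to 0.63 on slide 2 and -0.04 to 0.35 on slide 1. Of the let-7 partners, let-7a and let-7e did not overlap either, while let-7c overlapped. let-7a was at most 3.47 (TBI) on slide 1 and at least 3.49 (TBI+E33) on slide 2. let-7e was at most 1.40 (naive) on slide 1 and at least 1.51 (TBI+PMI) on slide 2. How many of all miRNAs shifted between the slides was not counted, so whether the shift is particular to these miRNAs is not known. TBI+PMI is the only group on both slides. Its slide 2 array exceeded the mean of its slide 1 arrays by 0.56 for miR-125a-5p, 0.29 for miR-125b-5p, 0.13 for miR-99a, 0.19 for miR-99b and 0.29 for miR-100.

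Within groups the miR-125 members and miR-100 were steady and the miR-99 members less so. The SD within groups was 0.0957 for miR-125b-5p, 0.0960 for miR-100 and 0.107 for miR-125a-5p, below the median of 0.140 over the 161 miRNAs well above background on all arrays. It was 0.139 for miR-99b and 0.165 for miR-99a. Group differences read by the 2 probes of a member lay a median of 0.04 and at most 0.11 apart over 30 pairs.

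**Figure D3:**
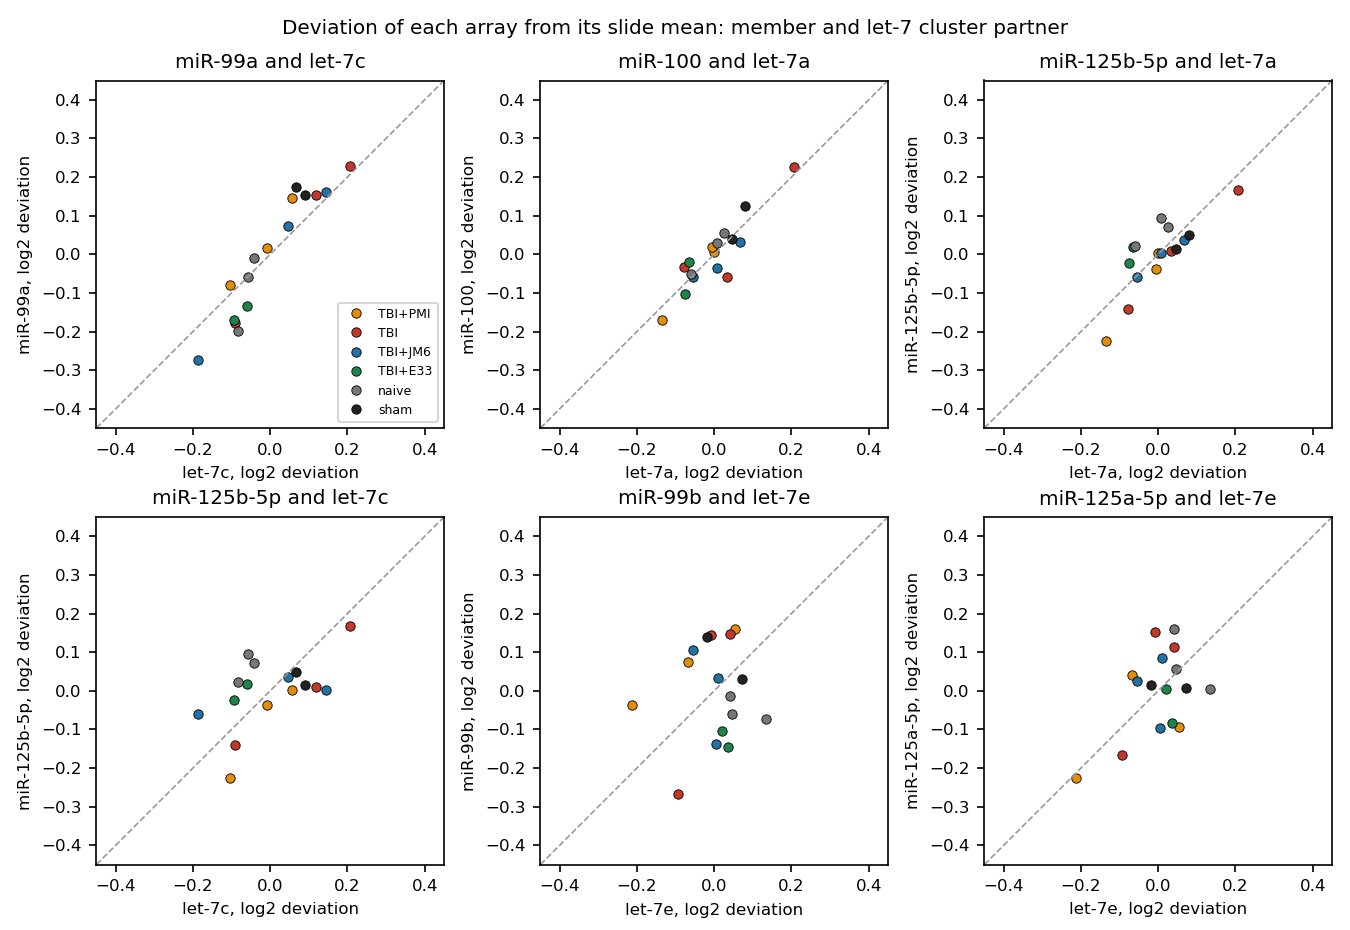
Level of a member (y axis) against that of a let-7 miRNA of its cluster (x axis), each as log2 deviation from its mean on the slide, for 6 pairs; points are arrays, coloured by group, and the dashed line marks equal deviations. miR-99a with let-7c and miR-100 with let-7a lie along that line, while miR-99b and miR-125a-5p scatter against let-7e.

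From array to array, miR-99a and miR-100 varied most like the let-7 miRNA of their own cluster, while the members on chromosome 1 did not. Likeness was measured as the SD over 16 arrays of the log2 ratio of both miRNAs, after each slide's mean was taken off, against each of 160 other miRNAs. For miR-99a the most alike was let-7c, at an SD of 0.0694, where the median over the 160 was 0.226. miR-99b (0.0838) and miR-23b (0.0880) came next. Pearson's r of miR-99a with let-7c was 0.948 over the 16 arrays, where both values share the RNA and scaling of an array, and is given as a description.

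For miR-100 the most alike was let-7a, at an SD of 0.0397 where the median was 0.164, followed by let-7f (0.0456) and miR-125b-5p (0.0608). Pearson's r with let-7a was 0.908. let-7a and let-7f are members of the let-7 family, and let-7a lies 7101 bases from miR-100. The let-7a and miR-100 sequences differ at 18 positions. miR-125b-5p was most like miR-107 (0.0524), miR-425 (0.0557) and let-7a (0.0563). let-7c, the let-7 beside its locus on chromosome 11, came at place 31 (0.0985).

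On chromosome 1 the trio was less alike by this measure. let-7e came at place 52 for miR-99b (SD 0.148) and at place 23 for miR-125a-5p (SD 0.101). miR-99b was most like miR-301a (0.0711), miR-103 (0.0751) and let-7c (0.0789), and miR-125a-5p most like miR-9* (0.0615), miR-107 (0.0641) and miR-125b-5p (0.0642). miR-99b and let-7e are the closest pair on the genome, 170 bases apart.

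**Figure D4:**
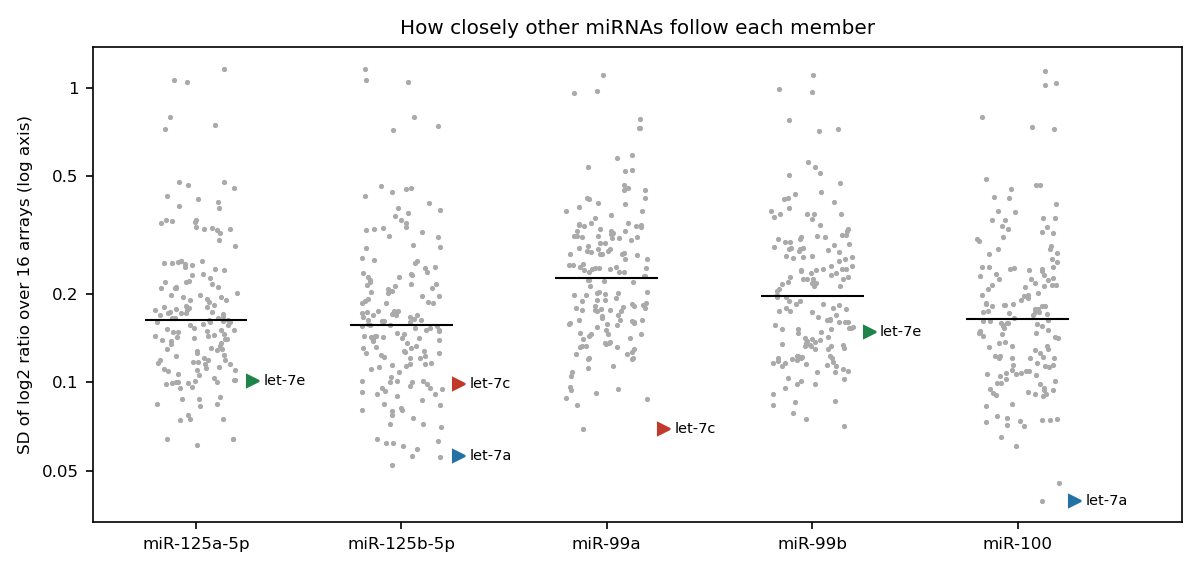
SD of the log2 ratio (y axis, log scale) of each member (x axis) to each of the 160 other miRNAs well above background on all arrays; grey points are miRNAs, lines medians and triangles the let-7 partners of the clusters, and lower is more alike. let-7c leads for miR-99a at 0.0694 and let-7a for miR-100 at 0.0397, while let-7e lies inside the main body for miR-99b at 0.148.

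These places were computed again under settings chosen after the data were seen. let-7c stayed first for miR-99a with the other probe of each member, summed probes, normexp background correction, the authors' table, either slide alone and each array left out. With quantile normalization it came at place 19. let-7a stayed first for miR-100 with summed probes, normexp, the authors' table, slide 1 alone and each array left out, but came second on slide 2, at place 4 with the other probe of each member and at place 39 with quantile normalization. The first places of the other members were less stable. For miR-125b-5p, let-7a came first without TBI+PMI 1 or TBI+E33 1 and at place 6 without TBI 1, where miR-324-3p led. miR-30e* led with summed probes and on slide 2. With quantile normalization let-7a came at place 37 and miR-29b led, at an SD of 1.9e-15. That setting fixes values by rank, and miR-125b-5p ranked 2 to 3 on every array, so this place cannot measure likeness. For miR-125a-5p, miR-107 led with summed probes and in the authors' table, and miR-425 with the other probe. For miR-99b, miR-301a led in most settings, but miR-138 on slide 2, let-7c without TBI 2, miR-30a without naive 2 and miR-103 without naive 3 or TBI+PMI 1. let-7e stayed between places 37 and 77 for miR-99b and between places 15 and 35 for miR-125a-5p.

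The group differences of the cluster partners are given side by side, in comparisons that share arrays. For miR-99a and let-7c they were 0.16 and 0.14 in TBI against naive, -0.04 and -0.10 in TBI+PMI against TBI, 0.12 and 0.04 in TBI+PMI against naive, -0.18 and -0.08 in TBI+JM6 against sham, -0.32 and -0.16 in TBI+E33 against sham and 0.14 and 0.08 in TBI+JM6 against TBI+E33. For miR-100 and let-7a they were 0.03 and 0.06, -0.13 and -0.12, -0.09 and -0.06, -0.10 and -0.06, -0.14 and -0.13, and 0.04 and 0.08 in the same order. With all arrays both pairs had the same sign in all 6 comparisons. For miR-99b and let-7e they were 0.06 and -0.09, 0.05 and -0.06, 0.11 and -0.15, -0.08 and -0.04, -0.21 and 0.00, and 0.13 and -0.04. With all arrays they had opposite signs in the 3 comparisons on slide 1 and in TBI+JM6 against TBI+E33. They also did in TBI+E33 against sham, where let-7e differed by only 0.000555. In TBI against naive the difference of miR-99b was -0.01 without TBI 1. The change of these ratios was not tested. miR-125b-5p differed by -0.05 in TBI against naive, beside 0.06 for let-7a and 0.14 for let-7c, and by -0.17 in TBI+PMI against naive, beside -0.06 and 0.04. In TBI+E33 against sham it differed by -0.04, beside -0.13 and -0.16. miR-125a-5p differed by -0.04 in TBI against naive, beside -0.09 for let-7e, and by -0.23 in TBI+PMI against naive, beside -0.15. None of these let-7 miRNAs was called, and of the 8 measured members of the let-7 family, miR-98 included, 0 were called in any of the 6 comparisons. The let-7 median was 0.06 for TBI against naive and -0.11 for TBI+E33 against sham.

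The other arms of the same hairpins were detected on fewer arrays, except for miR-99a*. miR-99a* (the opposite strand of the miR-99a hairpin, probes at chr11:16397596-16397614) was well above background on all 16 arrays, miR-125b* on 13, miR-125a-3p on 12, miR-99b* on 7 and miR-125b-3p on none. Of the related miR-10 family, miR-10a-5p was well above background on 10 arrays and miR-10b on none.

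miR-99a* was the only arm to pass a test, in TBI+E33 against sham, where limma called 3.98% of 226 miRNAs. It was at -4.00 and -4.13 on the TBI+E33 arrays, against -3.64 and -3.69 on the sham arrays. The groups did not overlap, and neither did those of 61.1% of all miRNAs tested. miR-99a* fell by 0.40 on the log2 scale (SE 0.07, interval -0.58 to -0.22, adjusted p by limma 0.0455), which is 0.759-fold. On the TBI+JM6 arrays it was at -3.89, -3.93 and -3.88, all below sham (31.1% of all miRNAs did not overlap), with a difference of -0.23 (SE 0.07, adjusted p 0.169). JM6 exceeded E33 by 0.17 (adjusted p 0.943). It stood at -3.98, -3.92 and -3.63 on the TBI arrays, against -3.86, -3.95 and -3.86 on the naive arrays, a difference of 0.04 (adjusted p 0.839).

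The call sat close to the threshold. It was lost without any 1 of TBI+E33 1, TBI+E33 2, sham 1 and sham 2 (differences of -0.47 to -0.33), and with normexp background correction, where the difference was -0.21 (adjusted p by limma 0.991). It was also lost without scaling of the arrays, without the filter, with an intensity trend in the spread, over all 16 arrays, with only the arrays of both groups and with the replicate block, at adjusted p of 0.0521 to 0.217. It held with summed probes, quantile normalization, the percentile over all probes and the stricter filter. miR-99a, the other strand of the hairpin, differed by -0.32 in the same comparison, without passing.

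**Figure D5:**
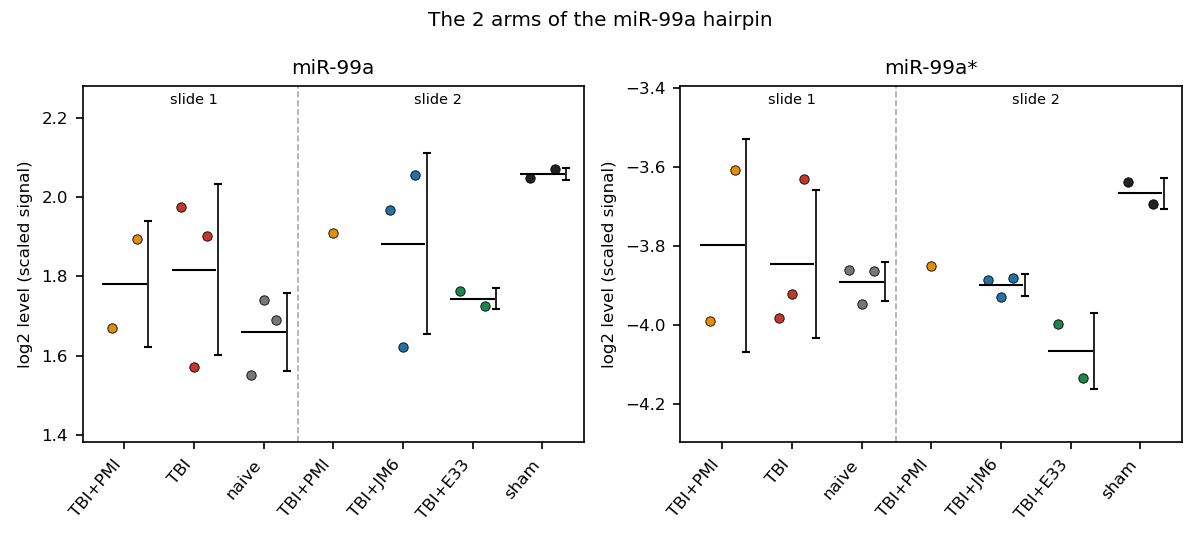
Log2 level (y axis, relative to the 75th percentile of the array) of miR-99a and of miR-99a* on each array, by group and slide (x axis); points are arrays, lines group means and bars their SD. On slide 2 the group means of both arms are lowest for TBI+E33 and highest for sham. For miR-99a, TBI+JM6 2 lies below both TBI+E33 arrays and TBI+JM6 3 lies between the sham arrays.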

How the data were processed

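Whole hippocampus RNA was labelled with Cy3 and hybridised to single-colour Agilent rat miRNA arrays. The authors deposited spot intensity values from Agilent Feature Extraction (9.5.3.1 per the file headers), background-subtracted as gProcessedSignal. Files held 7000 miRNA spots for 938 probes and 350 miRNAs. The authors' table of normalized intensities, taken to log2, served as an alternative only. For each probe, spots without outlier marks were averaged, scaled to each array's own 75th percentile (1945 to 4042, taken over 284 probes detected throughout), floored at -6.73 and taken to log2. The brightest probe stood for a miRNA. A miRNA entered a test if 1 of the groups compared had it well above background throughout. limma 3.58.1 in R 4.3.3 was fitted within a slide (TBI against naive on those 6 arrays, the rest on the 8 arrays of a slide, sharing 1 spread), and the fit was tested on simulated data. Exact permutation tests were not run, since these group sizes cannot pass 0.05. The precision is limited by 2 or 3 arrays a group.

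Named miRNAs were the members, their let-7 partners, other arms, miR-10 and the 3 most alike. Markers and lists were counted. Members and lists were chosen with earlier results of these data known. Alternatives changed scaling, background, probe, filter, spread, test, arrays and pairing. Mature sequences came from RefSeq GRCr8 (4 of 5 members matched). Python 3.11.15 with pandas 2.3.3 and matplotlib 3.10.9 made tables and figures.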

Additional observations from a re-analysis of the deposited data

Results flagged for a closer look

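Of the 226 miRNAs compared, 1 differed between TBI minus naive and TBI+E33 minus sham by the test of that difference, rno-miR-543*, which is no member of these families, at -0.72 on the log2 scale (SE 0.13, adjusted p by limma 0.0343, lost without 6 of the 10 arrays in turn, at -0.77 to -0.65). With the percentile over all probes or quantile normalization the 1 call had a positive difference, and no miRNA with a negative difference was called.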

How the results depend on the processing

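Over 32 member results and 613 repeats, limma called no member (lowest adjusted p 0.0650), and 42 repeats, over 17 results, changed sign. The largest such difference was 0.34. With the percentile over all probes the differences were 0.032 for miR-125a-5p and 0.020 for miR-125b-5p (TBI minus naive), 0.055 for miR-99a (TBI+PMI minus TBI), 0.069 for miR-100 (TBI+PMI minus naive) and 0.0046 for miR-125b-5p (JM6 minus E33). In the authors' table they were 0.018, 0.0073, 0.063 and 0.065 for the first 4 of these. Without scaling they were -0.044 for miR-99b and -0.065 for miR-100 (TBI minus naive), 0.19, 0.26, 0.34 and 0.25 for miR-125a-5p, miR-125b-5p, miR-99a and miR-100 (TBI+PMI minus TBI), 0.047, 0.11 and 0.19 for miR-125a-5p, miR-125b-5p and miR-100 (TBI+PMI minus naive) and 0.27 for miR-125b-5p (JM6 minus E33). Without scaling the median of all miRNAs lay between -0.44 and 0.29. Quantile normalization gave 0.031 for miR-99a (TBI+PMI minus TBI) and 0.017 for miR-100 (TBI+PMI minus naive), summed probes 0.020 for miR-125a-5p (JM6 minus sham) and 0.00067 for miR-125b-5p (JM6 minus E33), the other probe 0.11 and 0.045 for miR-125a-5p (JM6 and E33 minus sham) and 0.037 for miR-125b-5p (JM6 minus E33), and normexp 0.019 for miR-99b (JM6 minus sham). Leaving out 1 array gave ranges that crossed 0 for miR-125a-5p (-0.10 to 0.060), miR-125b-5p (-0.13 to 0.025), miR-99b (-0.013 to 0.19) and miR-100 (-0.056 to 0.087) in TBI minus naive, miR-99a (-0.16 to 0.077) and miR-99b (-0.084 to 0.15) in TBI+PMI minus TBI, miR-125a-5p in JM6 minus sham (-0.046 to 0.044), and miR-125a-5p (-0.0010 to 0.093) and miR-125b-5p (-0.026 to 0.022) in JM6 minus E33. Counts of all miRNAs called moved more. TBI against naive (0) gave 1 without scaling, 1 with normexp, 7 in the authors' table, 25 by the methods' t-test, 5 over all 16 arrays and 0 to 9 without 1 array. TBI+PMI against TBI (0) gave 3 without scaling, 4 by the methods' t-test and 0 to 3 without 1 array. TBI+PMI against naive (15) gave 0 with the percentile over all probes, quantile normalization, normexp or the adjusted t-test. It gave 7 without scaling, 1 without the filter and 31 by the methods' t-test. It gave 35 over all 16 arrays, 5 with only 2 groups and 0 to 2 without 1 naive array. The direction of these calls changed too. The 15 were all lower in TBI+PMI hippocampus, while the 7 without scaling were all higher. The authors' table gave 10 calls, 7 higher and 3 lower, and the replicate block gave 7 higher and 4 lower. TBI+JM6 against sham (12) gave 6 with the percentile over all probes or without the filter, 7 with quantile normalization, 1 without scaling or by the adjusted t-test, 2 with normexp, 0 over all 16 arrays, 5 with only 2 groups and 4 to 15 without 1 array. TBI+E33 against sham (9) gave 2 without scaling, 1 with normexp or the adjusted t-test, 19 with summed probes, 5 with an intensity trend, 31 by the methods' t-test, 3 over all 16 arrays and 2 to 13 without 1 array. TBI+JM6 against TBI+E33 (0) gave 1 without the filter, 1 by the methods' t-test and 0 to 2 without 1 array. The difference of differences gave 3 with summed probes and 0 to 2 without 1 array for JM6 (0), and for E33 (1) gave 4 with summed probes, 2 with the stricter filter, 0 without scaling, with normexp, the authors' table, an intensity trend or the replicate block, and 0 to 4 without 1 array. Samples sharing a replicate number deviated together in no steady way (correlations of -0.50 to 0.34). They were 0.29 and 0.34 for TBI+PMI against TBI, and -0.50 and -0.46 for TBI+PMI against naive. In a group of 2 arrays the deviations mirror each other, so these correlations cannot show whether the numbers pair the samples. The replicate block gave 11 calls for TBI+PMI against naive, 8 for TBI+JM6 against sham and 5 for TBI+E33 against sham, and 0 for the last with the TBI+E33 numbers crossed, a setting added after seeing the data. The causes were not tested. Signal over background limits the weak arms, and 2 or 3 arrays a group limit the rest.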
